A study of Homo sapiens with 6 samples.

Results

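The regions described here are sequences of human transcripts that hold the motif of an RNA G-quadruplex (rG4) and yet gave no strong stop of the reverse transcriptase (RT). A motif was 4 runs of at least 3 G separated by loops of 1 to 7 nt in the transcript strand. E, the stop strength, is the number of RT stops at a nucleotide divided by the mean number of stops per nucleotide of its transcript in the same library. A motif was called non-stalling if no G within it or in the 5 nt past its 3′ end reached an E of 5 in the DMS-free library labelled Na+. Transcripts needed 1 or more stops per nucleotide, on average, in both DMS-free libraries. Members were thus chosen by their E in the library labelled Na+, and that value is no finding about them. Of 636 motifs on such transcripts, 38 started before the first position of the transcript as numbered in the data, 58 ended after its last listed position and 5 differed from the listed bases. The other 535 motifs, on 399 genes, were used. Of these, 175 motifs on 149 genes (32.7%, 95% Wilson interval 28.9 to 36.8%) were non-stalling and 360 were stalling. For scale, 11.6% of all 30-nt windows of these transcripts held a G that reached an E of 5 in that library, and so did 67.3% of all motifs used. These counts describe the selection and were not tested.

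All 6 libraries were made from poly(A) RNA of U2OS cells, a human osteosarcoma line, with 1 library for each condition. A pair of libraries had no DMS (dimethyl sulfate) and were reverse transcribed in 150 mM Na+ or 150 mM K+ according to the labels. In another pair the RNA was refolded in vitro in 150 mM K+ or Li+, treated with DMS and reverse transcribed in K+. The last pair came from cells given 8% DMS for 5 min, unstressed or starved for 2 h in HBSS, a buffered salt solution without amino acids or serum, and was also reverse transcribed in K+. The label and the deposited file name of each library without DMS name opposite cations: the file of the library labelled Na+ is named for K+, and the reverse. The study's methods name Li+ beside K+ for this RT step, whereas its results name Na+, as the label does. The labels are followed in the naming here, and no library was reassigned from its values. Over G of all 535 motifs the library labelled Na+, whose file is named for K+, had 208162 stops and that labelled K+ 26226, a ratio of 7.54 relative to the transcript means, against 1.25 for all G of these transcripts. The reason for this difference was not tested. The libraries held 33507714 and 35371061 listed stops (labelled Na+ and labelled K+), 21480565 (in vitro K+), 31174408 (in vitro Li+), 12999691 (unstressed) and 24014417 (starved). Of 8 mesenchymal marker genes, 4 (VIM, SPARC, S100A6 and LGALS1) had at least 1 stop per nucleotide in every library, and 2 (RUNX2 and COL1A2) stayed under 0.25 in every library, as did 8 of 8 markers of other cell types. With 1 library per condition no difference between conditions could be tested. Intervals cover counting error or the spread over motifs, which are not replicates.

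In a G-quadruplex, guanines from 4 runs pair in stacked planar tetrads around a central cation. K+ stabilises the stack well, whereas Li+ and Na+ do so less. A folded rG4 blocks the RT as it arrives from the 3′ side, so that the cDNA ends at or next to the last G run of the motif. DMS methylates the face of guanine that tetrads use, and guanines held in a quadruplex are protected. After DMS treatment and RT in K+, a stall therefore reports a quadruplex that was folded while DMS was present. DMS also modifies unpaired A and C, which gives stops at accessible loop bases. The same G runs can pair with C in an ordinary helix instead, which is the reason for examining the C content of the loops.

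The first set of sequences shows non-stalling motifs in covered stretches, where at least 20 of the 100 nt around the motif had listed stops, and with no G that reached an E of 5 in the 50 nt on either side. Capitals mark the 4 runs of G, all positions are on GRCh37 (hg19), and the sequence is written 5′ to 3′ in DNA letters. UBE2S (coding sequence, exon 4 of 4) lies at chr19:55912902-55912926 on the minus strand, PTMS (3′UTR, exon 5 of 5) at chr12:6880022-6880042 on the plus strand, TUBB4B (coding sequence, exon 4 of 4) at chr9:140137087-140137108 on the plus strand, RPL36 (5′UTR, exon 1 of 3) at chr19:5690443-5690467 on the plus strand, and FLNA (coding sequence, exon 12 of 48) at chrX:153593254-153593278 on the minus strand.
UBE2S: GGGGccccaGGGGGcccGGGaGGGG
PTMS: GGGGtGGGGccGGGGttGGGG
TUBB4B: GGGtGGGGGGactGGGtctGGG
RPL36: GGGacgcGGGGctctGGGcctcGGG
FLNA: GGGcctGGGGccctGGGctggaGGG

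The next set shows non-stalling motifs that had a strong stop at a G a short way past their 3′ end. EEF2 (3′UTR, exon 15 of 15) lies at chr19:3976301-3976329 on the minus strand, U2AF2 (3′UTR, exon 12 of 12) at chr19:56185582-56185605 on the plus strand, TRAPPC3 (3′UTR, exon 5 of 5) at chr1:36602390-36602415 on the minus strand, and EMC10 (coding sequence, exon 7 of 7) at chr19:50985463-50985485 on the plus strand.
EEF2: GGGacttaatGGGccggtcGGGGaGGGGG
U2AF2: GGGtGGGGGGcGGGGGttGGGGGG
TRAPPC3: GGGttgtGGGGtggaGGGaggaaGGG
EMC10: GGGGGccaGGGtGGGGGtGGGGG

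The third set shows non-stalling motifs in stretches with few listed stops, and the last 2 lines are stalling motifs for comparison, CALM3 (E 5.35) and CHD4 (9.80). CAPNS1 (coding sequence, exon 2 of 11) lies at chr19:36631959-36631984 on the plus strand, CLPTM1L (5′UTR, exon 1 of 17) at chr5:1344969-1344989 on the minus strand, and CCND3 (5′UTR, exon 1 of 5) at chr6:41909503-41909522 on the minus strand. CALM3 (3′UTR, exon 6 of 6) lies at chr19:47113849-47113874 on the plus strand and CHD4 (3′UTR, exon 40 of 40) at chr12:6679676-6679698 on the minus strand.
CAPNS1: GGGGGaggcGGGGGcctGGGtGGGGG
CLPTM1L: GGGcGGGccGGGGGcgccGGG
CCND3: GGGcggcGGGcGGGctGGGG
CALM3: GGGaaggaGGGatGGGGcatagtGGG
CHD4: GGGGGaGGGGaGGGagtgaGGGG

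Non-stalling motifs lay mostly where the libraries recorded few stops of any kind. Nucleotides with fewer than 3 stops are not listed in the data, and a motif in a stretch with few listed nucleotides can fall under the limit whatever its structure. The number of listed nucleotides was therefore counted in the 50 nt before and the 50 nt after each motif in the library labelled Na+. A stretch with at least 20 of these 100 nt listed was called covered. Only 43 of 175 non-stalling motifs (24.6%) were in covered stretches, against 241 of 360 stalling motifs (66.9%). For 28 non-stalling motifs no nucleotide around was listed, and for 52 no G of the motif or the 5 nt past it was. The share of non-stalling motifs was 28 of 36 with no listed nucleotide around, 70 of 115 with 1 to 9, 34 of 100 with 10 to 19, and 24 of 154, 11 of 82 and 8 of 48 with 20 to 39, 40 to 59 and 60 or more. The share was thus nearly level once 20 nt were listed, at 43 of 284 motifs in covered stretches (15.1%, 11.4 to 19.8%), and 52.6% (132 of 251) in sparse ones. Over all stretches the share did not follow the transcript mean and was 35.1%, 30.3% and 33.7% at transcript means of 1 to 2, 2 to 5 and 5 or more stops per nucleotide. Within sparse stretches it was higher at higher means (62 of 141, 53 of 89 and 17 of 21), and within covered ones it was 17.1%, 12.8% and 18.5%. The part of thin local coverage in the low E of the sparse motifs was not tested further. Many of the following results, but not all, are given for the covered stretches beside the whole set.

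**Figure D1:**
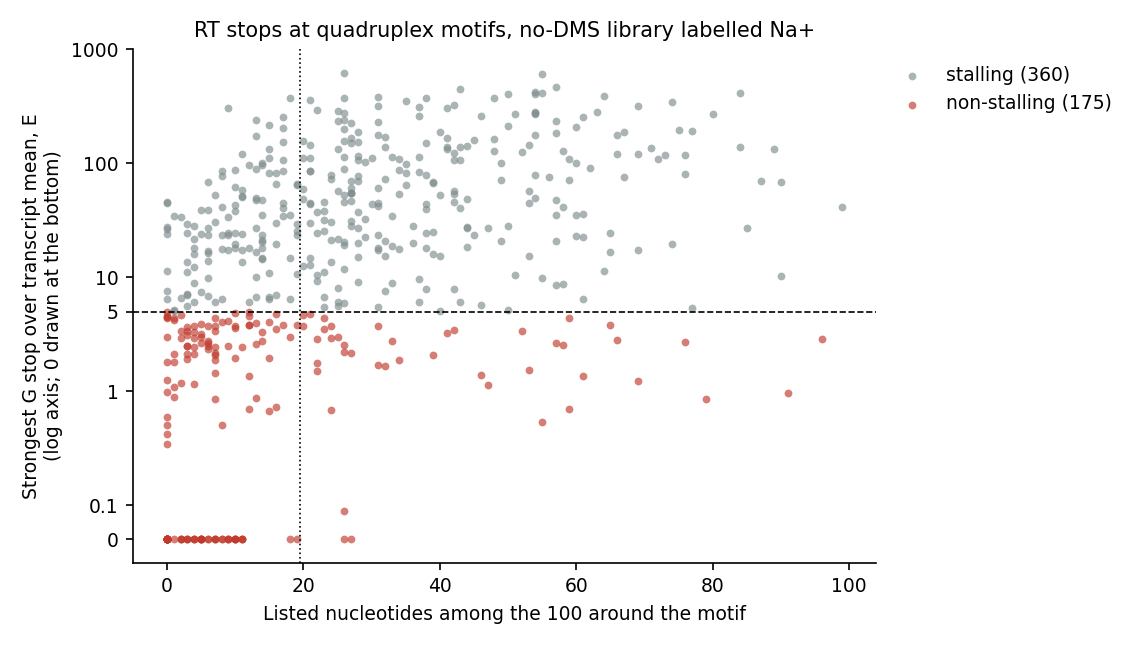
The strongest G stop of each motif, E (log axis, 0 drawn at the bottom), is plotted against the number of listed nucleotides among the 100 around it, in the library without DMS labelled Na+. The dashed line is the limit of 5 that separates the 175 non-stalling from the 360 stalling motifs, and the dotted line marks 20 listed nucleotides, to the right of which lie 43 non-stalling and 241 stalling motifs.

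Values around the limit ran on without a gap. The median E was 1.88 in the non-stalling and 44.9 in the stalling motifs, and 45 of the stalling motifs had an E of 5 to 10. Where the transcript mean was 5 or more, the non-stalling motifs nearest to the limit were those of CAPNS1, the calpain small subunit (E 4.40), CDV3 (3.72), CLPTM1L (3.32), EEF2 (2.85) and HDGF (2.84). The nearest stalling motifs were those of CALM3, a calmodulin gene (5.35), the RNA-binding proteins KHDRBS1 (6.51) and RBM3 (6.60), AP2S1, a clathrin adaptor subunit (8.76), and CHD4, a chromatin remodeller (9.80). The stop counts left some of the calls uncertain: for 25 of 43 non-stalling motifs in covered stretches the upper 95% Poisson limit of E was under 5 (a count of 0 was taken as 3 stops), and for the other 18 it was not.

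Non-stalling motifs were found mainly in 5′UTRs and coding sequences, whereas stalling motifs were mainly in 3′UTRs. The 175 non-stalling motifs lay in the 5′UTR (73), the coding sequence (62), the 3′UTR (37) and non-coding transcripts (3), against 45, 49, 258 and 8 of the stalling motifs. The non-stalling share was 61.9% (52.9 to 70.1%) in 5′UTRs, 55.9% (46.6 to 64.7%) in coding sequences and 12.5% (9.24 to 16.8%) in 3′UTRs. Coverage moved with this difference, since 68 of the 73 motifs in 5′UTRs were in sparse stretches. Within covered stretches the share was 5 of 13 in 5′UTRs (38.5%), 21 of 42 in coding sequences (50%, 35.5 to 64.5%) and 17 of 224 in 3′UTRs (7.59%, 4.79 to 11.8%). The intervals of coding sequence and 3′UTR thus did not overlap in covered stretches either, while that of the 5′UTR was wide (17.7 to 64.5%).

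The loops of non-stalling motifs were longer and richer in C. The median longest loop was 6 nt in non-stalling and 4 nt in stalling motifs, both in all stretches and in covered ones. The 3 loops summed to a median of 12 and 8 nt. All 3 loops were of 1 to 3 nt in 24 of 175 non-stalling motifs (13.7%) and 127 of 360 stalling motifs (35.3%), a difference of -21.6 percentage points (-28.2 to -14.0, Newcombe interval). The difference was -31.8 points (-39.9 to -17.4) within 3′UTRs and -19.1 (-35.2 to -3.15) within 5′UTRs. Within coding sequences it was -3.42 (-17.6 to 9.70), not distinguishable from 0. In covered stretches the difference was -24.9 points (-33.9 to -10.8), and -27.8 (-38.7 to -4.38) within 3′UTRs. The intervals included 0 in covered coding sequences (-9.52, -31.6 to 13.0) and covered 5′UTRs (-5, -42.8 to 41.0). The median share of C among the loop bases was 45.5% and 22.2%. No C at all was present in the loops of 3 of 175 non-stalling motifs, against 84 of 360 stalling motifs (23.3%). The G4Hunter score, which adds G runs and subtracts C runs, had a median of 1.68 in non-stalling and 2.26 in stalling motifs. In covered stretches the non-stalling share was 6 of 184 motifs (3.26%) with a score of at least 2, 12 of 62 (19.4%) from 1.5 to 2 and 20 of 33 (60.6%) from 1 to 1.5, and 5 of 5 motifs under 1 were non-stalling. The number of G did not separate the sets in the same way: every run had at least 4 G in 4% of non-stalling and 7.78% of stalling motifs, with an interval of the difference that included 0 (-7.61 to 0.88 points).

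The loop feature that differed most among those examined was a pair of adjacent C. This feature, and the letters GGGCC, were chosen after the values were seen. A loop with CC was present in 133 of 175 non-stalling motifs (76%) and 97 of 360 stalling motifs (26.9%), and in covered stretches in 36 of 43 (83.7%) and 58 of 241 (24.1%), a difference of 59.7 points (44.8 to 69.2). Read the other way, 36 of 94 covered motifs with CC in a loop were non-stalling (38.3%, 29.1 to 48.4%), against 6 of 120 with C but no CC (5%) and 1 of 70 with no C (1.43%). The difference was present at both ranges of loop length: among covered motifs with a longest loop of at most 5 nt, 15 of 41 with CC and 3 of 142 without were non-stalling, and among those with a loop of 6 to 7 nt, 21 of 53 and 4 of 48. It was also present within regions. In 3′UTRs 14 of 58 covered motifs with CC (24.1%) and 3 of 166 without (1.81%) were non-stalling, and in coding sequences 17 of 28 and 4 of 14. On the deepest transcripts, with at least 5 stops per nucleotide, the counts were 10 of 18 with CC and 2 of 47 without. The share of covered non-stalling motifs with CC ranged from 79.1 to 88.2% when the limit of E, the transcript minimum or the treatment of neighbouring stops was changed.

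GGGCC, a run that leads straight into CC and whose last 4 letters are their own reverse complement, was present on the transcript strand in 31 of 43 covered non-stalling motifs (72.1%) and 34 of 241 covered stalling motifs (14.1%). These letters were present in 65 of all 284 covered motifs. Of 30-nt windows of the transcripts, which need not hold any run of G, 3.4% held them. Any GGGCC here that spans a loop also counts as CC, so both features describe overlapping motifs. In coding sequences 15 of 19 covered motifs with GGGCC were non-stalling, and 6 of 23 without. MAP7D1, a microtubule-associated protein gene, held 3 such steps in the 18 nt of its 5′UTR motif and had an E of 3.73 at a transcript mean of 1.61 stops per nucleotide.

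**Figure D2:**
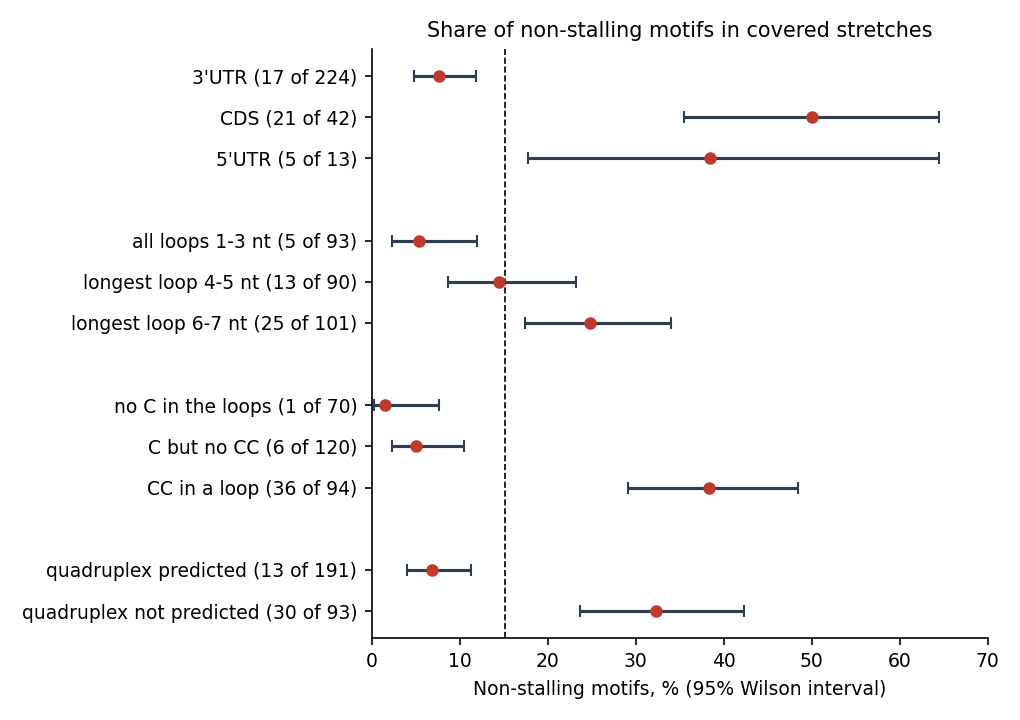
Share of non-stalling motifs (%, points) with 95% Wilson intervals (bars) in the 284 motifs of covered stretches, by transcript region, longest loop, C in the loops and predicted structure, with the counts in parentheses. The dashed line is the share in all covered motifs, 15.1%, and motifs with CC in a loop (38.3%) and in coding sequences (50%) lie to its right.

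RNAfold, given 30 nt on each side, placed a quadruplex in the most stable structure of 76 of 175 non-stalling motifs (43.4%) and 264 of 360 stalling motifs (73.3%), and in covered stretches of 13 of 43 (30.2%) and 178 of 241 (73.9%). Within covered stretches the difference was -43.4 points (-62.1 to -19.3) in 3′UTRs, while the intervals included 0 in coding sequences (-19.0, -43.5 to 9.08) and 5′UTRs (2.5, -40.1 to 46.4). The non-stalling share was 6.81% in covered motifs with a predicted quadruplex and 32.3% (30 of 93) in those without. When quadruplexes were not allowed, the lowest energy had a median of -33.2 kcal/mol in the covered non-stalling motifs (-36.9 to -30.6) and -24.9 kcal/mol in the covered stalling motifs (-27.0 to -23.8). Allowing the quadruplex lowered the energy by a median of 0 and 8.33 kcal/mol. The share of motif G that was paired in the structure without a quadruplex differed less, with medians of 68.4% and 63.2%. Prediction and CC were not the same split, since among covered motifs with a predicted quadruplex 9 of 37 with CC and 4 of 154 without CC were non-stalling.

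**Figure D3:**
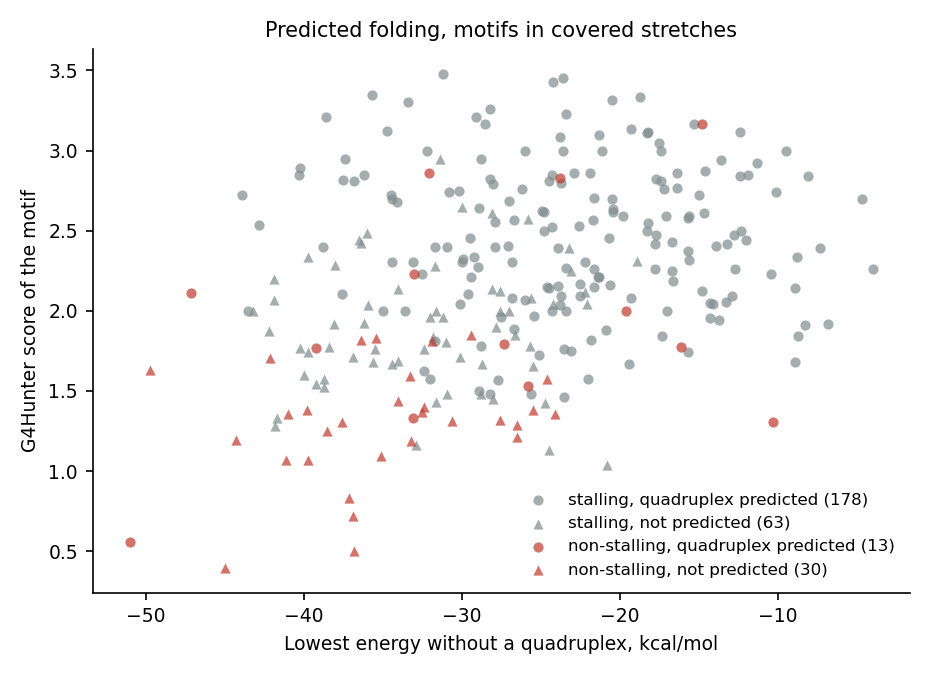
G4Hunter score of each motif in covered stretches plotted against the lowest predicted energy without a quadruplex (kcal/mol), with circles for motifs with a quadruplex in the most stable structure and triangles for the others. The 43 non-stalling motifs (red) lie mostly at lower scores and lower energies than the 241 stalling motifs (grey).

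Individual covered motifs showed how low the stops could be. RPL36, a protein of the large ribosomal subunit, had the highest transcript mean of all members, 33.5 stops per nucleotide in the library labelled Na+. Its 5′UTR motif had 6 and 10 stops in total over its G in the libraries labelled Na+ and K+, 7 in K+ and 12 in Li+ after folding in vitro, and 7 without stress against 3 after starvation. At the strongest G, E was 0.0896 where the label reads Na+ and at most 0.204 in any library, so that all 6 libraries were low at this motif. Only 26 of the 100 nt around it were listed.

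UBE2S, an E2 ubiquitin-conjugating enzyme that works with the anaphase-promoting complex, had a motif in its coding sequence with 91 of the 100 nt around it listed. Its G had 263 and 267 stops in the libraries labelled Na+ and K+, 130 in K+ and 189 in Li+ after folding in vitro, and 107 without stress against 36 after starvation. The E was 0.966, 2.13, 2.38, 1.58, 2.16 and 1.13 in the same order, so the motif gave stops in every library but none stood out. The A and C of its loops had 112, 99, 122, 148, 135 and 42 stops. RNAfold predicted no quadruplex here (-34.0 kcal/mol with and without one allowed). This was also the single member with at least 20 stops at its strongest G in vitro in K+.

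PTMS, the gene of the small acidic nuclear protein parathymosin, differed from most of the set in its short loops and high score, though it held CC in a loop. Its 3′UTR motif had 4 runs of 4 G with loops of 1, 2 and 2 nt, a G4Hunter score of 2.86 and a predicted energy of -52.2 kcal/mol with a quadruplex against -32.1 without. Its G had 79 and 78 stops in the libraries labelled Na+ and K+, 51 in K+ and 66 in Li+ after folding in vitro, and 41 without stress against 9 after starvation. The E was 1.36, 1.30, 1.91, 1.25, 0.935 and 2.67, below 5 in all 6. With 61 of 100 nt listed and a transcript mean of 12.5, the upper limit of E was 2.18 in the library labelled Na+. No G in the 50 nt on either side exceeded the limit of 5. In the structure without a quadruplex 93.8% of its motif G were paired. TUBB4B, a beta-tubulin, had a motif with loops of 1, 3 and 3 nt without CC and a score of 2.23, and E was 2.17 and 0.601 in the libraries labelled Na+ and K+, 0.768 in K+ and 0.586 in Li+ after folding in vitro, and 0.872 without stress against 0 after starvation. PMEPA1, an inhibitor of TGF-beta signalling, had a score of 2.11 in its 5′UTR motif and an E of 1.76 in the library labelled Na+. NUDC, a dynein-associated protein, had an E of 2.68 there in its 3′UTR motif, with a G stop of E 7.74 before it. Reads were kept if they mapped to 1 place, so motifs in genes with close copies, such as tubulins, ribosomal proteins and HSPA1A, are uncertain: the motif of HSPA1A had no listed stop at a G there, while a G past it had an E of 126.

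**Figure D4:**
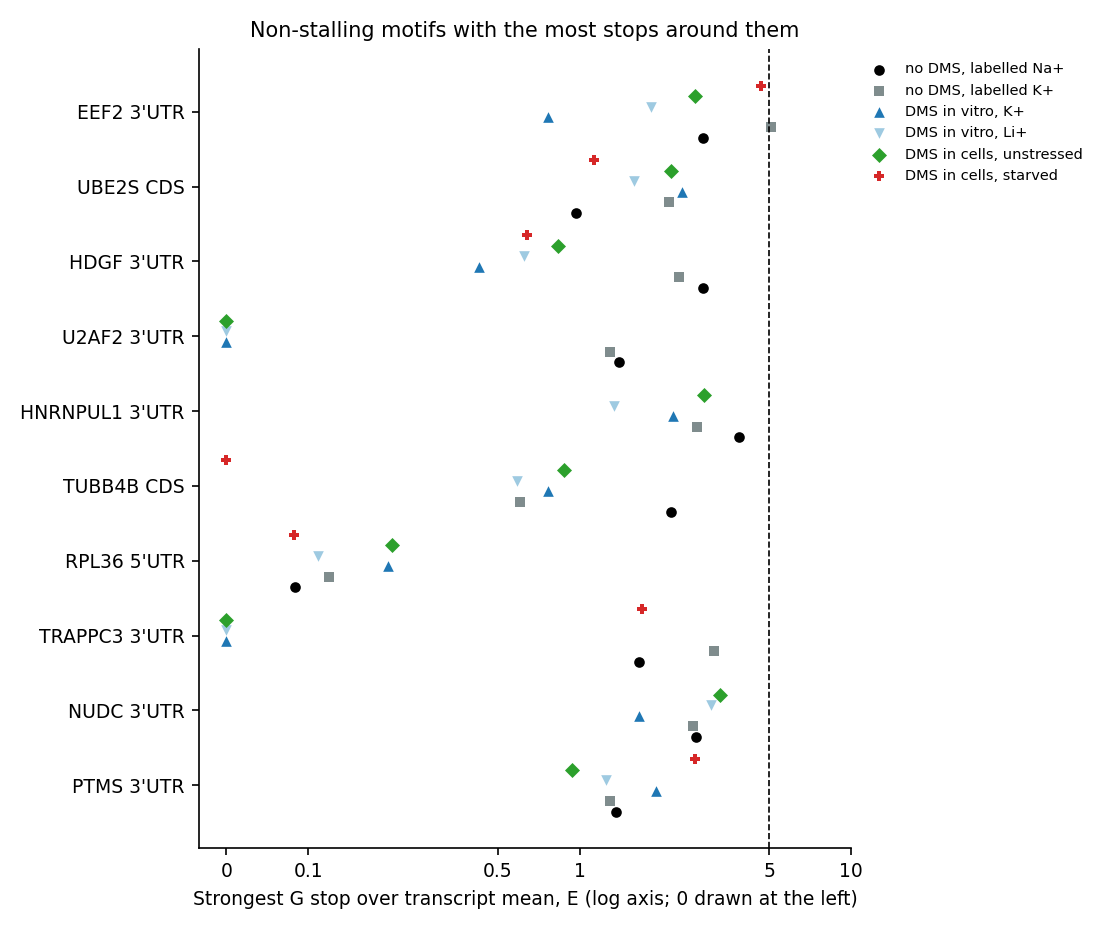
Strongest G stop, E (log axis, 0 drawn at the left), of the 10 named non-stalling motifs with the most stops in the 100 nt around them, in each library in which the transcript mean was at least 1. The dashed line is the limit of 5, and in the library labelled K+ the EEF2 motif reaches 5.05, while the RPL36 motif stays at most at 0.204 in every library.

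Some non-stalling motifs, high-scoring ones among them, lay just before a strong stop. A G with an E of at least 5 lay 6 to 50 nt past the 3′ end of 42 of 175 non-stalling motifs (24%) and of 14 of the 43 covered ones (32.6%). Such a G was present in 11.6% of all 30-nt windows, which are shorter than the stretch examined here. It was more frequent past stalling motifs, at 46.7% of all and 53.5% of covered ones. The difference was -22.7 points (-30.4 to -14.1) in all stretches. Within regions over all stretches the difference was smaller, with intervals that included 0: -11.0 points in 3′UTRs (-26.4 to 6.08), -14.9 in coding sequences (-30.8 to 1.17) and -11.4 in 5′UTRs (-28.0 to 4.68). In covered stretches the shares were 52.9% and 55.1% in 3′UTRs, but 19.0% and 52.4% in coding sequences, a difference of -33.3 points (-55.7 to -4.36). EEF2, the translation elongation factor that moves the ribosome along, had a stop of 3942 counts (E 145.9) 12 nt past its motif. U2AF2, the large subunit of the splicing factor that reads the polypyrimidine tract, had one of E 85.7 at 30 nt, HNRNPUL1, an hnRNP-like RNA-binding protein, one of 58.9 at 10 nt, TRAPPC3, a subunit of a vesicle-tethering complex, one of 54.3 at 15 nt, EMC10, of the endoplasmic reticulum membrane complex, one of 33.1 at 17 nt, and HDGF, a heparin-binding growth factor, one of 17.5 at 26 nt. Motifs whose G runs continue within 7 nt can be joined into longer tracts, and in 22 of 175 members such a tract held an E of at least 5. This was so for 20.9% of the covered members and 41.2% of the 17 in covered 3′UTRs. The non-stalling call of these motifs thus depends on how the tract is split. Taken as tracts, 152 of 527 (28.8%) were non-stalling. Of the 43 covered non-stalling motifs, 26 had no G with an E of at least 5 in the 50 nt on either side. In these 26 a quadruplex was predicted for 4 (15.4%) and CC was present in 22 (84.6%).

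Stops in the second library without DMS were low as well. Over all members, G had 0.285 times the stops expected from the transcript means in the library labelled Na+ and 0.206 times in that labelled K+, against 1.20 and 0.967 for all G of the transcripts and 8.48 and 1.06 for the stalling motifs. In covered stretches the members had 0.429 and 0.462, or 1982 and 2002 stops, a ratio of labelled Na+ to labelled K+ relative to the transcript means of 0.930. This rested on EEF2, with 376 and 673 stops, and without it the direction turned, with 1606 and 1329 stops and a ratio of 1.14. Members in sparse stretches had 1406 and 438 stops, 3.31 times as many in the library labelled Na+ relative to the transcript means. CAPNS1 had 343 and 72 stops over its G, CLPTM1L 183 and 0, CDV3 24 and 0 and CCND3, the gene of cyclin D3, 23 and 0. These motifs were thus below the limit against the mean of the transcript but gave more stops in 1 library than in the other. Since this pair of libraries chose the members, these values are a description. In the library labelled K+, E reached 5 in 2 of 175 members, EEF2 (5.05) and RECQL4, and in 102 of 360 stalling motifs, against 19.4% of all motifs and 10.5% of the 30-nt windows.

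In the DMS libraries, which the selection did not use, few members gave a strong stop. Where the transcript mean was 1 or more, E reached 5 in 0 of 115 members in vitro in K+ and 2 of 168 in Li+. In unstressed cells it did so in 2 of 77 and in starved cells in 0 of 74. Only 35, 64, 18 and 14 of these members had any listed stop at a G, so most had an E of 0. Of the stalling motifs 226 of 239, 309 of 342, 136 of 170 and 88 of 104 had one. The part of thin local coverage in this was not tested. Among the stalling motifs E reached 5 in 138 of 239, 144 of 342, 48 of 170 and 50 of 104. Among all motifs it did so in 39%, 28.6%, 20.2% and 28.1%. The shares in all 30-nt windows of transcripts were 2.5%, 2.19%, 3.02% and 5.48%. In covered stretches E reached 5 in 0 of 34 members in K+, 2 of 42 in Li+ (4.76%, 1.32 to 15.8%), 2 of 28 in unstressed cells (7.14%, 1.98 to 22.6%) and 0 of 16 in starved cells, so that the shares in Li+ and unstressed cells were above those of the windows, within wide intervals. In the covered stalling motifs it did so in 120 of 185, 125 of 238, 45 of 145 and 45 of 80. The members above the limit in Li+ and in unstressed cells were the same 2 genes, APH1A, of the gamma-secretase complex, and PCBP4, a poly(C)-binding protein. The APH1A motif had 40 and 37 stops over its G in the libraries labelled Na+ and K+, 17 in K+ and 28 in Li+ after folding in vitro, and 31 without stress against 4 after starvation. Its E was 2.76 and 2.57, 4.21 and 5.21, and 8.12 and 5.76, the last on a transcript mean of 0.694. Its strongest G was thus higher in the DMS libraries than in those without DMS, on at most 11 stops. A second motif of APH1A was stalling. Of the other genes the study examined singly, APP, LMNB1 and CDKN1B had 1 stalling motif each, ACTB had none, and the transcript of HIRA was below the minimum. Of 22 further genes known for quadruplexes in their transcripts, CCND3 and CTSB, a lysosomal protease, had the only motifs that could be used, and both were non-stalling in sparse stretches.

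In vitro, relative to the transcript means, G of the members had fewer stops in K+ than in Li+, whereas G of the stalling motifs had more. The 115 members had 671 stops in K+ and 1283 in Li+, a ratio relative to the transcript means of 0.726 (0.660 to 0.797). The ratio was 1.33 (1.29 to 1.36) for 239 stalling motifs, with 13923 and 14497 stops, and 0.999 for all G of these transcripts. EEF2 gave 49 and 241 of these stops, and without it the ratio of the members was 0.830 (0.750 to 0.917). The 12 covered members with a strong G stop nearby had 95 and 405 stops, a ratio of 0.324 (0.256 to 0.406), or 0.393 (0.277 to 0.548) without EEF2. The 22 covered members with none nearby had 496 and 714 stops, a ratio of 0.95 (0.846 to 1.07) that included 1. Stalling motifs with none nearby had 1.29 (1.25 to 1.34). These intervals were apart, but they cover counting error only. The medians over motifs with at least 10 stops had overlapping intervals on the log2 scale. They were 0.011 (-0.19 to 0.277) in 15 members and 0.245 (0.079 to 0.404) in 85 stalling motifs. This split by neighbouring stops was made after the values were seen. Among motifs with at least 10 stops, 2 of 26 members were at least 2-fold higher in K+ and 7 lower, against 21.1% and 6.2% of all motifs. The median over all 115 members was 0.47 on the log2 scale, which came from the 1 count added to each motif, since 61 had no listed stop in either library, and no direction was read from it.

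Pooled over all members, DMS stops in the loops differed between K+ and Li+ by less than the counting error, but not in every subset. Loop A and C had 746 and 1054 stops, a ratio of 0.985 (0.896 to 1.08). It was 1.03 (0.931 to 1.14) in covered stretches, and lower in sparse ones, with 67 and 143 stops (0.656, 0.483 to 0.883), and in the covered members with a strong G stop nearby, with 92 and 168 (0.755, 0.579 to 0.979). Among motifs with at least 10 such stops, 0 of 35 members were at least 2-fold higher in K+ and 3 lower, against 6.38% and 14.2% of all motifs. In covered stretches loop A and C had 0.604 and 0.599 times the stops expected from the transcript means in K+ and Li+ (34 and 42 members). All A and C of the transcripts had 1.68 and 1.67. Without DMS loop A and C of the 43 covered members had 0.300 and 0.407 in the libraries labelled Na+ and K+. In cells the values were 0.853 without stress (28 members) and 0.335 after starvation (16 members). Each library counted only motifs with a transcript mean of at least 1 in it, so these 6 values are over different motifs. All 6 values, without DMS too, were below those of A and C over the whole transcripts, which were 0.976 and 1.06 in the DMS-free pair. In covered stalling motifs the ratio of K+ to Li+ was 0.966 (0.914 to 1.02).

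**Figure D5:**
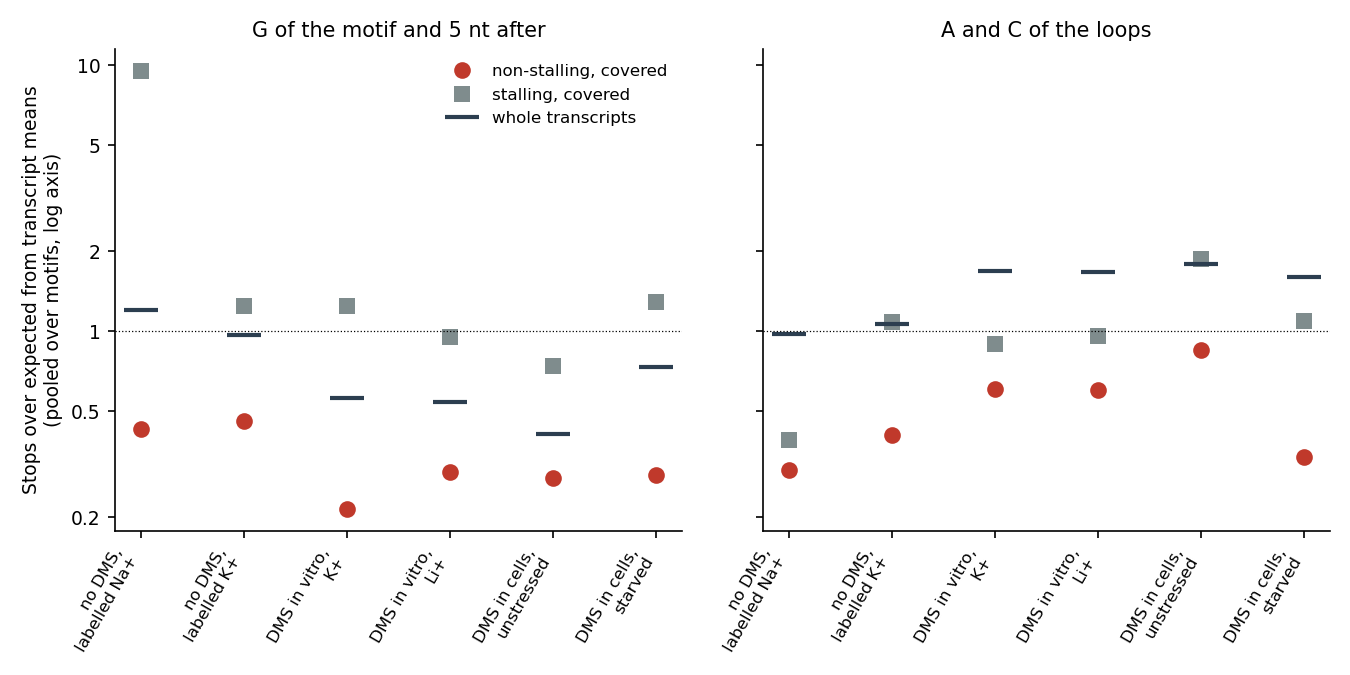
Stops over the number expected from the transcript means, pooled over motifs (log axis), in the 6 libraries, for G (left) and loop A and C (right) of covered non-stalling motifs (circles), covered stalling motifs (squares) and all such bases of the transcripts (dashes). Each library counts the motifs whose transcript mean was at least 1 in it, so the sets of motifs differ. G of the non-stalling motifs had 0.215 to 0.462 times the expected stops and lay below all G of the transcripts in every library.

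Relative to the transcript means, G had more stops in starved than in unstressed cells, over whole transcripts and in stalling motifs alike. At G of the members the ratio was lower, and in covered stretches it depended on EEF2. For all G of the transcripts the ratio of starved to unstressed cells, relative to the transcript means, was 1.76, and for 78 stalling motifs it was 1.79 (1.72 to 1.86). In the 50 members whose transcript means were 1 or more in both libraries, G had 387 stops in starved and 472 in unstressed cells, a ratio of 0.807 (0.704 to 0.925). EEF2 gave 211 and 151 of them, and without it the ratio was 0.534 (0.442 to 0.644). The 15 covered members had 381 and 462 stops, a ratio of 1.06 (0.922 to 1.22), or 0.704 (0.580 to 0.851) without EEF2, and the covered stalling motifs 1.92 (1.84 to 2.00). The 4 covered members with a strong G stop nearby had 226 and 164 stops, a ratio of 1.96 (1.60 to 2.42). EEF2 gave most of these stops. The other 3 members had 15 and 13, a ratio of 1.82 (0.806 to 4.15), too few to give a direction. The 11 members with none nearby had 155 and 298, a ratio of 0.648 (0.530 to 0.789). An increase of at least 2-fold was seen in 1 of 11 members with at least 10 stops and in 36 of 64 stalling motifs, against 49.3% of all motifs, and a fall of that size in 2 and 1, against 4%. UBE2S had 36 and 107 stops and PTMS 9 and 41 in starved and unstressed cells, with transcript means of 4.41 and 10.2 for UBE2S and 2.25 and 9.63 for PTMS. Loop A and C of the members had 201 stops in starved and 504 in unstressed cells, a ratio of 0.349 (0.295 to 0.411), or 0.448 in covered stretches, while the ratio was 0.604 in stalling motifs and 0.888 for all A and C. Of 9 members with at least 10 such stops, 0 were at least 2-fold higher and 3 lower, against 6.9% and 25.9% of all motifs. The counts in cells come from 1 library each and few genes: 34 of the 50 members had no listed stop at a G in either. The median over the 50 members was -0.01 on the log2 scale relative to the mean over all bases. Relative to the mean over G and U it was -1.09 (-1.28 to -0.82). With 34 of 50 at 0, these medians came mostly from the added count and the scaling means, and no direction was read from them.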

How the data were processed

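RT stops were profiled in 6 libraries of U2OS cells, 1 per condition. According to the labels, stalled cDNAs were selected by size on a gel. According to the study's methods, the authors removed duplicate reads with SAMtools and mapped the rest by Bowtie (unique hits, no mismatch) to hg19 transcripts. The deposited stop counts cover nucleotides with at least 3 stops, as the values show. The deposited ratio of each count to a mean of its transcript was used in 1 alternative. Nucleotides that are not listed were counted as 0. The listed bases of each transcript were aligned to GENCODE release 44 transcripts (GRCh37) with a minimum identity of 97% and a minimum coverage of 80%. This placed 2641 of the 2723 transcripts whose mean was 1 or more in both libraries without DMS. Motifs were the leftmost matches that do not overlap. The flank on each side was 50 nt, and folds used ViennaRNA 2.7.2 at 37 °C with 30 nt on each side. Shares have 95% Wilson intervals, differences of shares Newcombe intervals, medians order-statistic intervals and ratios of counts exact conditional binomial intervals, and no p-value was calculated. The calling of stalls was tried on simulated stops spread evenly along each transcript, with strong stops added at some motifs. This setting had no local loss of coverage and does not bear on the calls in sparse stretches.

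Named were the 10 members with the most stops around them, the 5 on each side of the limit of E where the transcript mean was 5 or more, members with at least 20 stops in vitro in K+, the 5 highest G4Hunter scores in covered stretches, and the genes of both lists. Motifs on chromosome 8 were left out, except that CTSB, a list gene on it, and RECQL4 are named. Genes named beyond these (FLNA, MAP7D1, PCBP4, HSPA1A and RECQL4) were chosen after their values were seen. The members and lists were chosen with earlier results of these data known.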

Additional observations from a re-analysis of the deposited data

How the results depend on the processing

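The share of non-stalling motifs, 32.7%, was 23.9% with a limit of E of 3, 41.1% with 10, 28.8% for joined tracts, 42.9% with loops of up to 12 nt, 15.1% in covered stretches and 80.6% if the library labelled K+ decided. The 3′UTR share of members, 21.1%, was 39.5% in covered stretches. The share with a predicted quadruplex, 43.4%, was 35.4% at 42 °C and 30.2% in covered stretches. On the log2 scale, the median ratio of K+ to Li+ at G was 0.47, with 0.56 if scaled to the mean over G and U, and it changed sign in covered stretches (-0.16), with at least 10 stops (-0.23) and for pooled counts (-0.46). The median carries the 1 count added to motifs without stops. For loop A and C it was 0.47, with 0.14 in covered stretches, and it changed sign with at least 10 stops (-0.038) and for pooled counts (-0.022). The median ratio of starved to unstressed cells was -0.01, with -1.09 if scaled to the mean over G and U, and it carries the added count too. The settings with at least 10 stops, pooled counts, without EEF2, and all for CC were chosen after seeing the data. In the other 36 combinations of a result and a setting the value moved by less than its interval. No paired analysis was possible because each condition had 1 library. Depth limits the low values: nucleotides under 3 stops are not listed.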
